A study of Mus musculus with 12 samples.

Results

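Transcripts of 8 seminal vesicle secretory genes (*Svs1*, *Svs2*, *Svs3a*, *Svs3b*, *Svs4*, *Svs5*, *Svs6*, and *Pate4*) were examined in mouse urinary bladder and colon, out of 54532 genes in the deposited tables. The genes were taken by name, as a possible measure of accessory sex gland tissue carried over into bladder samples, and they were chosen by levels of accessory gland genes already seen in these same libraries. Their levels are therefore a description and were given no test between tissues. All 8 names were found, each with a single gene ID. The data went against the label: 5 of the 8 genes were listed at 0 in all 12 libraries, only *Svs5* reached 1 TPM (a gene's transcripts scaled to the same total in each library, corrected for transcript length), and it did so near the limit of detection. Genes of the prostate, in contrast, were the most abundant transcripts of 3 of the 6 bladder libraries. The genes are accordingly described here by name and not as a measure of gland tissue.

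The libraries came from 9 male mice with floxed alleles of both *Yap1* and *Wwtr1* (YAP and TAZ, co-activators of the Hippo pathway) on a mixed background. Y/T KO mice also carried a tamoxifen-inducible Cre recombinase (CreERT2) driven by the *Myh11* promoter, which is active in smooth muscle. This transgene lies on the Y chromosome, so only males can be studied. Ctrl mice lacked Cre. Both genotypes were given tamoxifen at 1 mg per mouse per day for 5 days, and per the labels they were 5 to 7 weeks old and were sampled at day 7 from the first injection. Each group held 3 libraries of 1 mouse each: Ctrl bladder (mice 784, 785, and 788), Y/T KO bladder (782, 783, and 780), Ctrl colon (788, 786, and 787), and Y/T KO colon (759, 783, and 780), so that 3 mice gave both tissues.

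The seminal vesicles are paired androgen-dependent glands that lie against the neck of the bladder in male mice, next to the coagulating gland and the lobes of the prostate. Their epithelium secretes most of the volume of the seminal fluid, and its main proteins are cross-linked after ejaculation by transglutaminase 4 (*Tgm4*), an enzyme from the coagulating gland, into a copulatory plug. Most genes for these proteins stand side by side in a fast-evolving cluster that also holds protease inhibitor genes. Each gland of the male tract has its own set of abundant secreted proteins, so that many of their transcripts can be told apart by name. Some genes on the gland lists used here were also present in other tissues, as given below.

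Of the 8 genes, 6 lie within 98.5 kilobases of chromosome 2 (build GRCm38). In order of position these are *Svs2* (ENSMUSG00000040132, chr2:164235929-164238466, minus strand), *Svs3b* (ENSMUSG00000050383, chr2:164254363-164256640, minus strand), *Svs4* (ENSMUSG00000016998, chr2:164275952-164278459, minus strand), *Svs3a* (ENSMUSG00000017003, chr2:164289268-164291500, plus strand), *Svs6* (ENSMUSG00000017000, chr2:164316751-164318453, plus strand), and *Svs5* (ENSMUSG00000017004, chr2:164332740-164334396, plus strand). *Svs1* (ENSMUSG00000039215) lies at chr6:48986861-48991722 on the plus strand, and *Pate4* (ENSMUSG00000032099) lies at chr9:35607093-35611941 on the minus strand. All are protein-coding. The start regions of the genes of the cluster are shown because they show how closely these genes resemble each other and where they part, from 60 bases before to 20 bases after the annotated start, in the direction of the gene, taken from RefSeq (GRCm38.p6). Capitals mark the letters TATAAA, the core of a TATA box.
Svs2, chr2:164238322-164238401, minus strand: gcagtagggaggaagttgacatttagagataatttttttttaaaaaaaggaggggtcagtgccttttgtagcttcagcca
Svs3b, chr2:164256624-164256703, minus strand: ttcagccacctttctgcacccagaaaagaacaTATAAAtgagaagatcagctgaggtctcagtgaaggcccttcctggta
Svs3a, chr2:164289207-164289286, plus strand: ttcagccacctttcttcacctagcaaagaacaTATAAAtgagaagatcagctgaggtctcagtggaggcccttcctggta
Svs4, chr2:164278288-164278367, minus strand: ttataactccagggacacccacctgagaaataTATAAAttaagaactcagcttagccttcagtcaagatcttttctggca
Svs5, chr2:164332705-164332784, plus strand: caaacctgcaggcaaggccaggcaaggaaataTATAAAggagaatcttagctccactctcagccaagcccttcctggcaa
Svs6, chr2:164316691-164316770, plus strand: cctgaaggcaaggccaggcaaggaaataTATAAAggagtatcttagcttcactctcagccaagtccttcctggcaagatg

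RefSeq start regions were matched for 7 of the 8 genes (*Pate4* was not matched). TATAAA, searched on the strand of the gene within these 80 bases, was found in 5 of the 7, and its first base stood 28 bases before the start in *Svs3a*, *Svs3b*, *Svs4*, and *Svs5* and 32 bases before it in *Svs6*. It was not found in *Svs1* or *Svs2*. Among all 32851 mouse start regions of this length, 3.20% held it. The RefSeq starts used for *Svs2*, *Svs4*, and *Svs5* lie inside the gene coordinates given above, and other starts of the genes were not searched. A match of letters is a description and not evidence of binding.

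*Svs3a* and *Svs3b* were the closest pair also in their transcripts, with 88.4% identical positions and a longest shared run of 370 bases. Of the distinct stretches of 76 bases, the read length inferred from the values, 32.6% of those of *Svs3a* and 33.3% of those of *Svs3b* were shared between them. Reads from these stretches could not be assigned to either gene alone, but since both genes were listed at 0 in every library this split no value. The other 6 genes shared no such stretch with any annotated gene, and *Svs5* and *Svs6*, the pair closest to them in similarity, had 54.8% identical positions and a longest shared run of 33 bases. The annotated transcripts of *Svs4*, *Svs5*, and *Svs6*, the genes with nonzero values, are therefore distinct at the length of a read. Inexact matches, sequence outside annotated transcripts, and the reads themselves were not examined.

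All 12 libraries were of similar depth, with 2.80 to 3.94 gigabases of aligned sequence. The bladder label was checked with uroplakins of the urothelium, and *Upk2* was at 642 to 905 TPM in the 6 bladder libraries and at 0 to 0.172 TPM in the 6 colon libraries, with *Upk3a* at 837 to 1182 TPM and 0 to 1.18 TPM. *Upk1a* was at 1376 to 1794 TPM in bladder and 8.88 to 17.9 TPM in colon, and *Upk1b* at 1158 to 1451 TPM and 5.42 to 12.6 TPM. *Krt20*, on the same list of urothelial markers, went the other way, at 128 to 162 TPM in bladder and 479 to 664 TPM in colon. For *Yap1*, the Ctrl bladders held 101, 98.6, and 110 TPM against 71.3, 69.4, and 72.1 TPM in the knockout bladders, with no overlap. The share of all genes that likewise did not overlap was not counted. For *Wwtr1*, the Ctrl bladders held 32.5, 61.6, and 53.3 TPM against 59.3, 60.8, and 48.3 TPM in the knockout bladders, so that this gene did not separate the genotypes in the whole bladder. Neither gene separated the genotypes in colon. Colon *Yap1* read 54.9, 52.8, and 45.8 TPM without Cre (mice 788, 786, and 787). With Cre it read 44.0, 41.3, and 47.0 TPM (mice 759, 783, and 780). Colon *Wwtr1*, mice in the same order, read 16.8, 21.5, and 17.2 TPM without Cre, then 17.9, 20.5, and 22.7 TPM with it. Values per gene do not show which exons were lost, and in whole tissue fewer cells of a type and less RNA per cell cannot be told apart.

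The structural proteins of the plug came first in the description because they are the most abundant products of the gland. *Svs2*, the major clotting protein and the mouse relative of the semenogelins, was listed at 0 in all 6 bladder and all 6 colon libraries. *Svs3a* and *Svs3b*, which encode further clotting proteins, were also listed at 0 in all 12 libraries. *Svs1*, whose product resembles copper amine oxidases and also enters the plug, was listed at 0 throughout, as was *Pate4* (also called *Svs7*), a small secreted protein that binds sperm. A value of 0 does not exclude a low level, and 3 read pairs, the count below which a gene can be missed by chance, would have corresponded in the bladder libraries to 0.101 to 0.128 TPM for *Svs1*, 0.189 to 0.240 TPM for *Svs2*, 0.235 to 0.299 TPM for *Svs3a*, 0.224 to 0.285 TPM for *Svs3b*, and 0.261 to 0.332 TPM for *Pate4*. These limits cover counting error only.

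*Svs4*, *Svs5*, and *Svs6* encode small secreted proteins of the same cluster, and they gave all 13 values above 0 among the 96 values of the 8 genes in 12 libraries. Of these, 9 were among the 48 bladder values and 4 were in colon. *Svs4*, which encodes an abundant protein that binds sperm, had 0.136 TPM in the bladder of Ctrl mouse 785, and the other 11 libraries listed it at 0. The aligned bases behind that value, 148, are about those of 1 read pair. *Svs6* was at 0.278 TPM in Ctrl bladder 785, at 0.341 TPM in Y/T KO bladder 782, at 0.265 TPM in Y/T KO bladder 780, and at 0.145 TPM in Ctrl colon 786. Each of these *Svs6* values stood on about 0.9 to 2 read pairs, below the 3 read pair limit of 0.523 to 0.665 TPM in bladder, and its remaining 8 libraries were listed at 0.

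*Svs5* was the most abundant of the 8 genes. In Ctrl bladder it was at 2.14 TPM (mouse 784), 0.564 TPM (785), and 0 TPM (788), and in Y/T KO bladder at 1.83 TPM (782), 0.555 TPM (783), and 1.17 TPM (780). The genotypes overlapped, with the highest and the lowest value both in Ctrl. In colon *Svs5* was at 0 TPM (788), 0.525 TPM (786), and 0.292 TPM (787) in Ctrl and at 0 TPM (759), 0.793 TPM (783), and 0 TPM (780) in Y/T KO, so that 3 colon libraries also held reads of this gene and the range of the tissues overlapped. The annotated transcripts of *Svs5* run from 380 to 628 bases, which puts the value in Ctrl bladder 784 at 8.4 to 13.9 read pairs, that in Y/T KO bladder 782 at 7.3 to 12 read pairs, and that in Y/T KO bladder 780 at 4.4 to 7.2 read pairs. Those 3 values were above the 3 read pair limit of their library (0.736 to 0.936 TPM in bladder), which is set with the shortest transcript. The bladder values of mice 785 and 783 and all colon values were below the limit of their own library (0.598 to 0.800 TPM in colon). With the longest transcript, Ctrl bladder 785 (2 to 3.4 read pairs), Ctrl colon 786 (2.3 to 3.8), and Y/T KO colon 783 (2.9 to 4.8) would also exceed 3 read pairs. The best rank of *Svs5* among the genes of a bladder library was 14582.

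**Figure D1:**
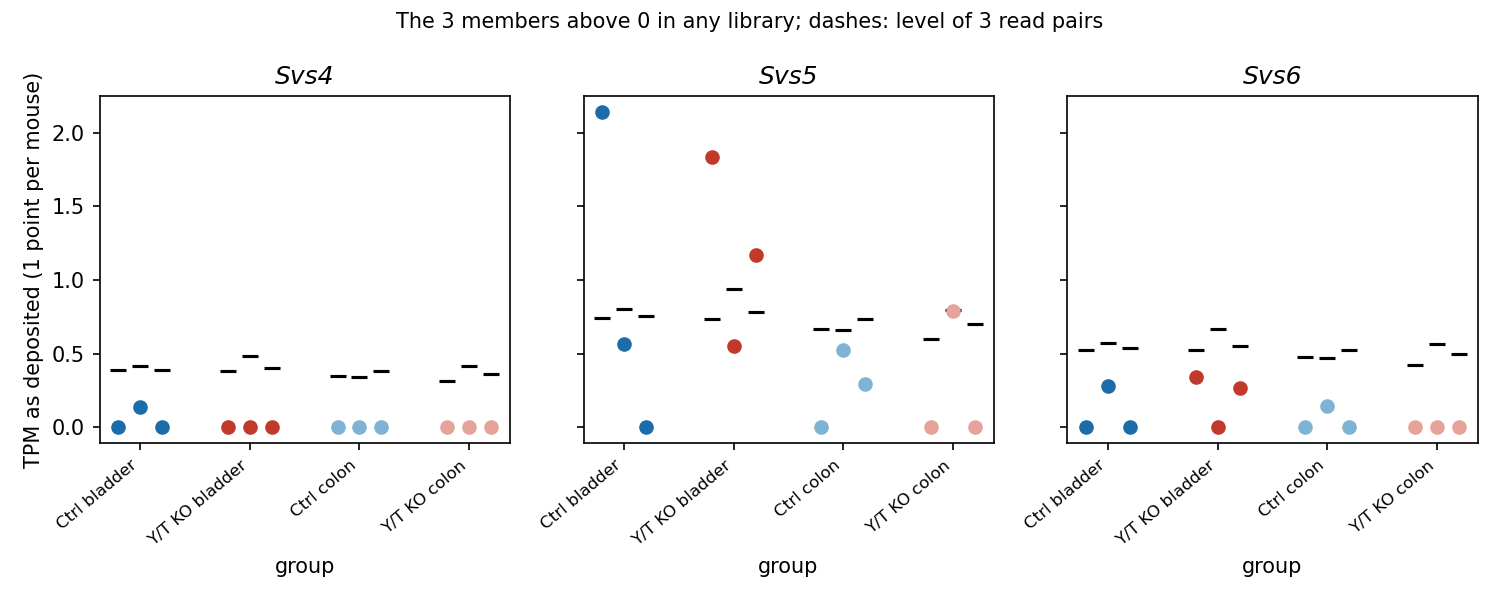
TPM of *Svs4*, *Svs5*, and *Svs6*, the members above 0 in any library, with 1 point per mouse in each group and a dash at the level of 3 read pairs in that library. Only *Svs5* rises above the dashes, in Ctrl bladder 784 and Y/T KO bladder 782 and 780, and its highest point is 2.14 TPM.

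Summed over the 8 genes, the level per library was 2.14 TPM (784), 0.979 TPM (785), and 0 TPM (788) in Ctrl bladder and 2.18 TPM (782), 0.555 TPM (783), and 1.43 TPM (780) in Y/T KO bladder. The means were 1.04 ± 1.07 TPM (SD, n = 3) in Ctrl bladder and 1.39 ± 0.811 TPM (SD, n = 3) in Y/T KO bladder. In colon the means were 0.321 ± 0.336 TPM (SD, n = 3) in Ctrl and 0.264 ± 0.458 TPM (SD, n = 3) in Y/T KO. The SD in both bladder groups was thus larger than the difference between them, and in both colon groups it was larger than the mean.

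Whether the genes differed between genotypes in bladder was read from limma fits over all genes, on log2 of scaled TPM plus 0.1. The 18249 genes that reached 0.5 TPM in 3 or more bladder libraries were tested, and 55 of these (0.301%) passed a Benjamini-Hochberg adjusted p of 0.05, 15 higher and 40 lower in Y/T KO (11 to 51 genes with each library left out, the fewest without Ctrl 785 or Ctrl 788, and 19, 25, and 29 without Y/T KO 783, Y/T KO 780, and Ctrl 784). Of the 8 seminal vesicle genes, 1 was tested and 0 were called. An unadjusted p below 0.05 was found for 0 of them and for 2707 of the 18249 genes tested, a share that 1 tested gene cannot be compared with. *Svs5*, the gene tested, had a log2 fold change of 1.13 (SE 1.13, 95% interval -1.58 to 3.83, adjusted p = 0.678 by limma), and without Ctrl bladder 788, in which it was listed at 0, the log2 fold change was -0.08. The interval includes both a lower and a much higher level in Y/T KO, and a p above the threshold does not show that the genotypes were alike. In colon 0 of the 8 genes passed the filter on low values.

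Prostate genes gave the reverse of this picture in level. *Sbp*, which encodes the spermine-binding protein of the ventral prostate, was at 36341 TPM in Ctrl bladder 784, 14.3 TPM in 785, and 35.3 TPM in 788, and at 19.3 TPM in Y/T KO bladder 782, 39648 TPM in 783, and 27206 TPM in 780. It ranked first among all genes in mice 784, 783, and 780, whereas it was at 0.462 to 2.61 TPM in the 6 colon libraries. *Sbpl*, its neighbor and near copy, had 12877 TPM (784), 2.60 TPM (785), and 7.21 TPM (788) in the Ctrl bladders and 2.59 TPM (782), 23860 TPM (783), and 16848 TPM (780) in the knockout bladders, and 27.2% of its stretches of 76 bases are shared with *Sbp*. The 3 libraries that were high for *Sbp* were high for *Sbpl*, 1 in Ctrl and 2 in Y/T KO.

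Other prostate genes followed the same libraries. *Defb50*, a beta-defensin of the prostate, had 2997, 0.268, and 1.74 TPM in Ctrl mice 784, 785, and 788, in that order, and 0.50, 891, and 1402 TPM for Y/T KO mice 782, 783, and 780, an order kept for the genes that follow. *Msmb*, which encodes beta-microseminoprotein, had 2410, 0, and 0.507 TPM in Ctrl against 0, 129, and 795 TPM in the knockout. *Pbsn*, which encodes probasin, had 967, 0, and 0.728 TPM in Ctrl against 0, 33.8, and 311 TPM in the knockout. These proteins are secreted into the seminal fluid by prostate epithelium. Mice 784, 783, and 780 were thus high for all of these genes, while the order among the 3 varied, with *Msmb* and *Pbsn* highest in 784 and *Sbp* and *Sbpl* highest in 783. *Tgm4*, the coagulating gland enzyme that cross-links the seminal vesicle proteins, reached no more than 0.273 TPM in any bladder library.

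**Figure D2:**
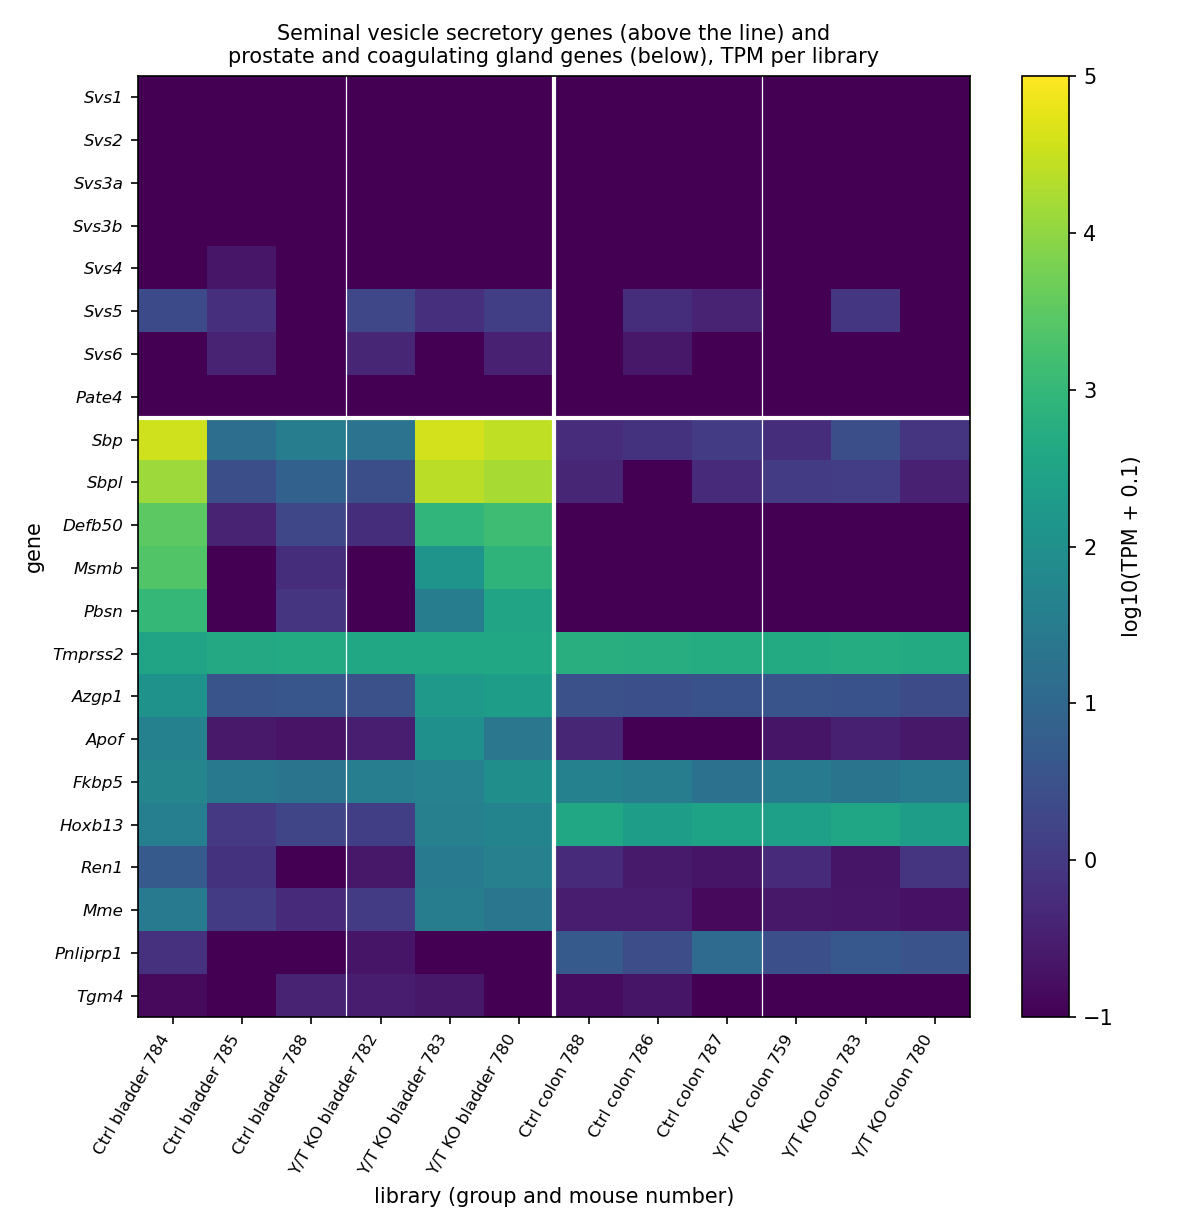
Heatmap of log10(TPM + 0.1) for the 8 seminal vesicle genes (above the horizontal line) and the prostate and coagulating gland genes (below it, 1 gene of the list not drawn) in the 12 libraries, bladder to the left of the thick vertical line and colon to the right. The prostate genes *Sbp*, *Sbpl*, *Defb50*, *Msmb*, and *Pbsn* are bright in Ctrl bladder 784 and Y/T KO bladder 783 and 780, where the seminal vesicle genes stay dark.

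Of the 15 prostate and coagulating gland genes, 13 reached 1 TPM, 8 reached 100 TPM, and 4 reached 1000 TPM in at least 1 bladder library, compared with 1, 0, and 0 of the 8 seminal vesicle genes. *Tmprss2* and *Fkbp5* on that list are also expressed in colon and in every bladder library. *Hoxb13*, a transcription factor of prostate and hindgut, was at 39.3, 40.7, and 51.5 TPM in the bladders of mice 784, 783, and 780 and at 0.865, 1.65, and 1.21 TPM in those of mice 785, 788, and 782, while it was at 221 to 368 TPM in colon. The list took 5.62% of all TPM in Ctrl bladder 784, 6.54% in Y/T KO bladder 783, and 4.74% in Y/T KO bladder 780, against 0.0475%, 0.0529%, and 0.0461% in mice 785, 788, and 782. *Sbp* and *Sbpl* together were at 21.8 TPM in mouse 782 and at 63508 TPM in mouse 783, whereas the 8 seminal vesicle genes summed to 2.18 TPM in mouse 782 and to 0.555 TPM in mouse 783, the latter below the 3 read pair limit of *Svs5*.

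The summed markers of the bladder wall were lower, within each genotype, where prostate transcripts were high, although not every marker was. The 6 smooth muscle markers summed to 25436, 34348, and 30712 TPM for Ctrl mice 784, 785, and 788 and to 22590, 14700, and 12085 TPM for Y/T KO mice 782, 783, and 780, so that the libraries with high *Sbp* had the lower sums of their genotype. The 6 urothelial markers summed to 5381, 5857, and 5662 TPM in Ctrl and to 5683, 4818, and 4466 TPM in Y/T KO. *Upk1a* and *Upk2*, which encode uroplakins of the urothelial surface, were instead highest among Ctrl libraries in mouse 784, and *Acta2*, smooth muscle actin, was higher in 784 (9646 TPM) than in 788 (9492 TPM). How far the prostate transcripts play a part in the smooth muscle difference between genotypes was not tested.

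**Figure D3:**
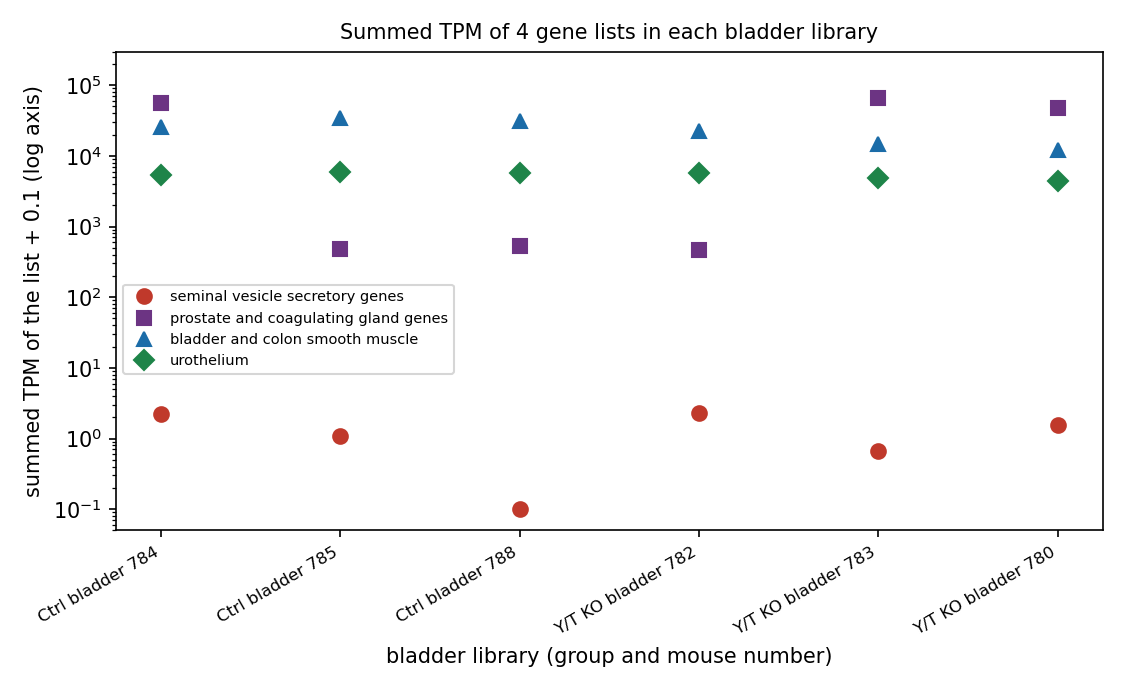
Summed TPM plus 0.1 of 4 gene lists in each bladder library on a log axis, with 1 point per list and library. The seminal vesicle genes lie between 0 and 2.18 TPM in all 6 libraries, while the prostate list is above the smooth muscle list in Ctrl 784 and Y/T KO 783 and 780 and below the urothelial list in the other 3.

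The prostate genes did not separate the genotypes either, since high and low libraries were present in both. Of the 15 genes 13 were tested in bladder by limma, 0 were called and 0 had an unadjusted p of 0.05 or less, with adjusted p from 0.495 to 0.921. Over all 18249 genes tested, 55 (0.301%) were called and 2707 had an unadjusted p below 0.05. At that share of calls, 0 of 13 says little about the list. The median log2 fold change of the 13 genes was 2.06, beside 0.00 over all genes tested. For *Sbp* the log2 fold change was 3.38 (SE 4.40, 95% interval -7.70 to 14.5, adjusted p = 0.759).

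**Figure D4:**
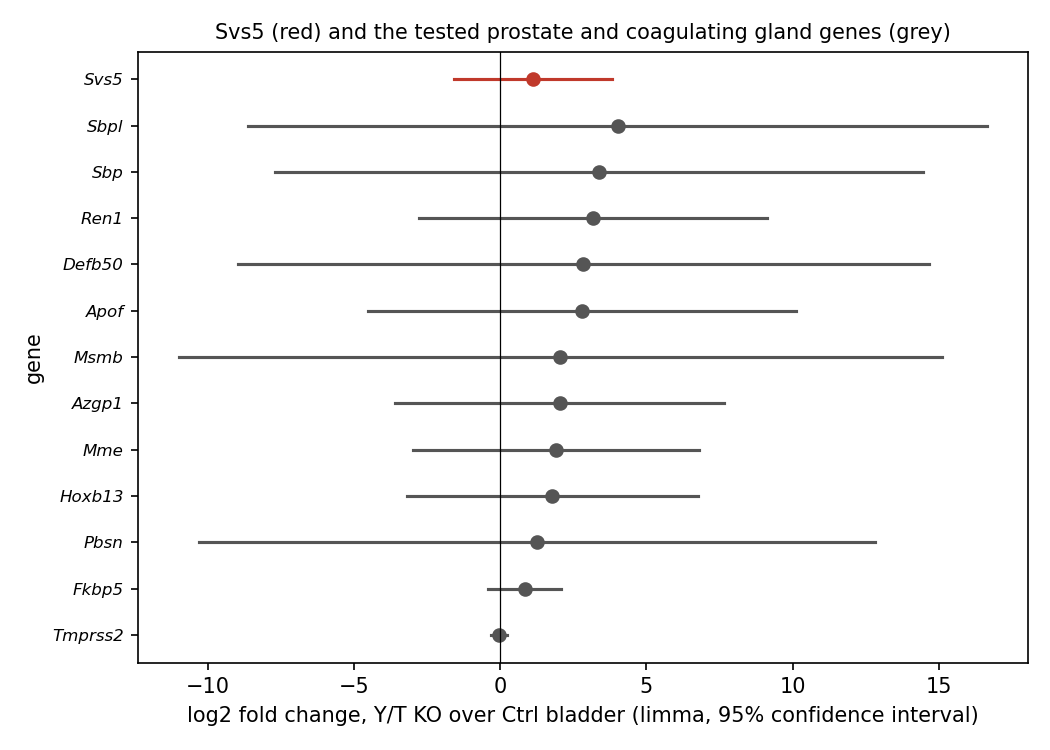
Log2 fold change of Y/T KO over Ctrl bladder with its 95% confidence interval from limma, for *Svs5* (red) and the prostate and coagulating gland genes that were tested (grey, 1 of them not drawn). The interval of *Svs5* runs from -1.58 to 3.83 and that of *Sbp* from -7.70 to 14.5, and every interval shown includes 0.

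A second list of genes known from seminal vesicle held 23 names, of which 12 were in the tables, and 5 of these reached 1 TPM in at least 1 bladder library. *Sva*, which encodes the seminal vesicle autoantigen and is a defining product of the gland, was listed at 0 in all 12 libraries. *Spink1*, a secreted trypsin inhibitor, had 1240 TPM (784), 0.812 TPM (785), and 0 TPM (788) in the Ctrl bladders and 0.759 TPM (782), 9183 TPM (783), and 177 TPM (780) in the knockout bladders. It was high in the libraries that were high for *Sbp*, but it was also at 2901 to 4199 TPM in the 6 colon libraries and so is not particular to the seminal vesicle here. *Ceacam10* had 1.29 TPM (784), 0.149 TPM (785), and 0 TPM (788) in the Ctrl bladders and 0 TPM (782), 0.648 TPM (783), and 1.06 TPM (780) in the knockout bladders. *Ceacam10* was thus also highest in the libraries that were high for *Sbp*, and it was at 19.8 to 32.5 TPM in colon. *Serpine2* and *Clu* were present in colon as well. *Wfdc15b*, the remaining gene, was at 76.8 to 114 TPM in all 6 bladder libraries, those with low *Sbp* included, and was listed at 0 in colon. Of the 5 genes, all tested in bladder by limma, 0 were called, beside 55 of 18249 over all genes tested. An unadjusted p below 0.05 was found for 2 of them, beside 2707 of the 18249. These were *Clu* (log2 fold change -0.67, adjusted p = 0.102 by limma) and *Serpine2* (0.64, adjusted p = 0.232 by limma).

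The genes around the 8 members were examined because reads of an expressed neighbor could be counted for a member. Neighbors were the 3 nearest genes on each side of each member and any gene that overlaps a member, with the members themselves left out. Among these 20 neighbors, 10 were listed at 0 in all bladder libraries and 7 reached 1 TPM in at least 1. *Wfdc15b*, named above and a protease inhibitor gene of the same chromosome 2 cluster, had 89.1, 76.8, and 100.5 TPM in the Ctrl bladders against 114, 106, and 97.8 TPM in the knockout bladders, and it was listed at 0 in all 6 colon libraries. It lies 14269 bases from *Svs2*, which was listed at 0 in the same libraries. *Slpi*, the next expressed gene beyond *Svs5* and another protease inhibitor, ranged from 64.3 to 1098 TPM in bladder. Of the neighbors 2 overlap a member on the opposite strand (*4930563H07Rik* over *Svs1* and *Pate2* over *Pate4*), and neither exceeded 0.183 TPM in bladder.

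A list of 10 regulators of the accessory glands was also examined. *Pax2*, a transcription factor of the ducts that give rise to the seminal vesicle, did not exceed 0.021 TPM in bladder. *Pax2* does not stand for the list, as 8 of the 10 genes reached 1 TPM in at least 1 bladder library. Equally, 8 reached it in at least 1 colon library. How their levels vary between libraries is not described here. Of the 10 genes 8 were tested in bladder and 0 were called by limma, beside 55 of 18249 over all genes tested.

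The genes most like the sum of the 8 members across the 6 bladder libraries, by Pearson's r of log2(TPM + 0.1) among 18187 genes, were *Gm5830*, *Dnm3os*, *Gm1821*, *Snx19*, *Gm7901*, *Nsg1*, *2700081O15Rik*, *Clec10a*, *Fxyd7*, and *Rtl5*, with r from 0.959 to 0.990. All 10 were lowest in mouse 788, the library where the members were at 0, and 0 of the 10 were on a gland list. *Sbp* had an r of 0.28 and rank 4130. These values rest on 6 points and on member levels of a few reads, and they describe these libraries only.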

How the data were processed

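The authors made stranded poly(A) libraries from whole tissue, aligned the reads with HISAT2 to GRCm38, and ran StringTie (versions not given in the sources used here). The deposited tables give per gene the TPM, the FPKM (fragments per kilobase, scaled to mapped fragments by the authors), and the coverage (mean reads per base, by the authors). The counts behind the authors' DESeq2 tests were not used here. Rows were summed by gene ID. Of 54409 gene IDs compared, 98.3% had the coordinates of GENCODE M21. Aligned bases came from the ratio of coverage to FPKM, and read pairs from coverage times transcript length divided by 152, the most frequent number of aligned bases at genes with few reads (76 for a single read). Counting limits were set at 3 read pairs.

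Within a tissue, TPM was scaled by median-of-ratios size factors. Genotype effects on log2(value + 0.1) were estimated with limma 3.58.1 under R 4.3.3 (trend and robust options, two-sided, Benjamini-Hochberg over all genes tested). Python 3.11.15, with pandas 2.3.3 and biopython 1.88, was used for tables and sequences. The fit was tested on simulated data. Members and lists were chosen with earlier results of these data known. All 8 members are named, and 2 genes of the other lists, which stay in the counts and sums, are not reported here. Other genes are named if they belong to a list and reached 1 TPM in a bladder library, are among the 3 nearest neighbors on a side, or are the 10 most alike. *Sva*, *Tgm4*, *Pax2*, and *Pate2*, and the overlapping gene at *Svs1*, were named after their values were seen.

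The mouse numbers pair colon and bladder of 3 animals, and the correlation of deviations from the group means within these mice was -0.013 (788), 0.082 (783), and 0.052 (780) over 18104 genes. No mouse is in both genotypes of a tissue. With 3 mice per group, the smallest two-sided p of an exact permutation test is 0.1.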

Additional observations from a re-analysis of the deposited data

How the results depend on the processing

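The count of seminal vesicle genes called in bladder was 0 in each fit that tested any, but most of these tested *Svs5* alone (3 members without the filter on low values), and none was tested without Ctrl 784 and Y/T KO 783 and 780. The count over all genes, 55, was 48 to 64 with another pseudocount, filter, unit, or model option and with all 12 libraries in a single fit. Removing the accessory gland genes could change it little, since 0 of them were called in bladder and unlisted gland transcripts were kept. With that removal the count was 56. It was 140 at an adjusted p of 0.1, 11 to 51 with each library left out (11 without Ctrl 785 or without Ctrl 788, 19 without Y/T KO 783, 25 without Y/T KO 780, and 29 without Ctrl 784), and 2 without Ctrl 784 and Y/T KO 783 and 780, an alternative chosen after seeing the data that leaves a lone Y/T KO library and assumes that it varies like the Ctrl libraries. Why the count changed when libraries were left out was not tested, and those fits also held fewer libraries. With the replicate block by mouse over all 12 libraries, 64 genes were called, as without it, and *Svs5* had a log2 fold change of 1.04 (adjusted p = 0.779 by limma). The block changed no call of a seminal vesicle gene. The log2 fold change of *Svs5* was 0.30 to 1.14 with all libraries kept and -0.08 to 2.18 with each left out, and its adjusted p by limma ran from 0.336 to 0.968 over all of these. It turned to -0.083 without Ctrl 788. The summed level of the 8 genes, on the log2 scale 1.06 higher in Y/T KO bladder, was 0.36 to 1.08 with other units or averages and -0.26 to 1.998 with each library left out, turning to -0.26 without Ctrl 788. *Sbp* was -0.25 without the 3 libraries named above, which were left out for their *Sbp* level, so that this value is set by the choice, and it was 1.28 to 6.98 with each library left out. The median member sum in colon was 0.146 TPM and 0.0746 FPKM. Depth limits the members to 0.101 to 0.936 TPM in bladder, below which a gene listed at 0 cannot be told from a low one.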

Other observations

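Of 24 genes of the epididymis and vas deferens, 18 were listed at 0 in all bladder libraries. *Crisp1*, a secreted protein of the epididymis that coats sperm, was at 57.9 TPM in Ctrl bladder 784, at 0.137 TPM in Y/T KO bladder 780, and listed at 0 in the other 4 bladder libraries. It was also at 0.468 to 1.44 TPM in the 3 Ctrl colon libraries and listed at 0 in the 3 Y/T KO colon libraries. *Akr1b7*, an aldose reductase abundant in the vas deferens, was at 139 TPM in Ctrl bladder 784 and at 1.30 to 2.68 TPM in the others. In colon it was at 8.96 to 11.97 TPM in Ctrl and at 3.11 to 3.81 TPM in Y/T KO. *Defb42*, a beta-defensin of the epididymis, was at 6.20 TPM in the bladder of mouse 784. Mice 783 and 780, which had 39648 and 27206 TPM of *Sbp*, did not share the high values of *Crisp1* and *Akr1b7*. *Lcn8*, another gene of that list, was at 1.20 to 2.65 TPM in all 6 bladder libraries. Of 4 genes of the list tested in bladder by limma, 0 were called, beside 55 of 18249 over all genes tested. Of 2 tested in colon, 1 was called, beside 24 of 17508 over all genes tested.

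Of 10 testis and sperm genes, 0 reached 1 TPM in a bladder library, and the highest was *Smcp*, a protein of the sperm mitochondrial capsule, at 0.639 TPM in Ctrl bladder 784 (named after its value was seen). The seminal vesicle genes other than *Svs5* were listed at 0 in that library.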
